A study of Mus musculus with 31 samples.

Results

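The 5 genes that encode receptors of natural killer (NK) cells, Klrb1c, Klrk1, Ncr1, Klrd1 and Klrc1, and the chemokine gene Ccl5 were followed across regulatory T cells (Tregs) of 10 groups of tissue and genotype. The genes were chosen by symbol, and all 6 were found among the 24594 genes of the deposited count table. Of the 6, 5 passed the filter on low counts and could be tested, as did 15202 genes of the whole table, and Ncr1 did not pass.

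Cells were sorted by flow cytometry as live CD45+ CD3+ CD4+ CD8- CD25+ cells of FVB/N mice, with no FOXP3 gate named in the labels, and sequenced as bulk RNA in 31 libraries. The tumor-bearing mice (KEP) were K14cre;Cdh1F/F;Trp53F/F, in which a keratin 14 promoter drives the Cre that removes floxed Cdh1 (E-cadherin) and Trp53 (p53) from epithelial cells, and they carried spontaneous mammary tumors of 225 mm2. The wild-type controls (WT) were wt;Cdh1F/F;Trp53F/F, so they carried the same floxed alleles without the Cre. Each genotype had 3 libraries from lymph node, lung, blood and spleen apiece, which makes 24, and the KEP nodes drained the tumor. Mammary gland gave 4 WT libraries and the tumor 3 KEP libraries. A WT library pooled 3 mice and a KEP library held 1 mouse.

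NK receptors tell a lymphocyte whether a neighbouring cell is stressed or healthy. Klrb1c encodes the activating receptor that carries the NK1.1 epitope, Klrk1 encodes NKG2D, which binds stress-induced ligands of the Rae1, H60 and MULT1 families, and Ncr1 encodes NKp46. Klrd1 encodes CD94, which pairs with NKG2A, the product of Klrc1, into an inhibitory receptor for the non-classical class I molecule Qa-1. Some T cells also carry these receptors, among them natural killer T cells, gamma delta T cells and effector CD8 T cells. Ccl5 encodes RANTES, a chemokine that effector lymphocytes and myeloid cells release and whose receptors include Ccr1 and Ccr3.

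On the mouse assembly GRCm38 with GENCODE M21 gene models, 4 of the receptor genes lie in the NK gene complex of chromosome 6. Klrb1c spans positions 128778485 to 128789215 on the minus strand. Klrd1 spans 129591782 to 129598775 on the plus strand, and Klrk1 follows at 129610323 to 129623864 on the minus strand. Klrc1 spans 129666015 to 129678973 on the minus strand. Ncr1 lies on chromosome 7 at 4337724 to 4345164 on the plus strand, and Ccl5 on chromosome 11 at 83525778 to 83530518 on the minus strand. The Klrb1 family has near-identical copies, so Klrb1c counts, like those of Klrc1 beside Klrc2 and Klrc3, are uncertain where reads could match more than one gene.

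RefSeq promoter sequences on GRCm38.p6 were found for 4 of the 6 genes, all of them receptor genes. All 4 are shown, and none was found for Klrd1 and Ccl5. The Ncr1 transcript was near the limit of detection. Each line gives the 250 bases before the RefSeq start, 5' to 3' on the strand of the gene, and capitals mark the RUNX motif TGTGGT or its reverse complement ACCACA. The windows are chr6:128788642-128788891 for Klrb1c, chr6:129623865-129624114 for Klrk1 and chr6:129678974-129679223 for Klrc1, all on the minus strand, and chr7:4337465-4337714 for Ncr1 on the plus strand. The Klrb1c window lies inside the longer GENCODE span of that gene.
Klrb1c: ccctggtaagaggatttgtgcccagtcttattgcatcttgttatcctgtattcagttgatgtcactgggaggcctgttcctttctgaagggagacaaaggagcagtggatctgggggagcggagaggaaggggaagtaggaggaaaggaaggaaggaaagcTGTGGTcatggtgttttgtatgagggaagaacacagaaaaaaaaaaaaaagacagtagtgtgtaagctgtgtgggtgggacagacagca
Klrk1: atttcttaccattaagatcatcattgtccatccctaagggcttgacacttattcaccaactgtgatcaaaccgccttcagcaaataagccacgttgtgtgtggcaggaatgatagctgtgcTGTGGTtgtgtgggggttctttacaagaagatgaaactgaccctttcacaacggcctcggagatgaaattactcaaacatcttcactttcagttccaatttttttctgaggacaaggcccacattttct
Klrc1: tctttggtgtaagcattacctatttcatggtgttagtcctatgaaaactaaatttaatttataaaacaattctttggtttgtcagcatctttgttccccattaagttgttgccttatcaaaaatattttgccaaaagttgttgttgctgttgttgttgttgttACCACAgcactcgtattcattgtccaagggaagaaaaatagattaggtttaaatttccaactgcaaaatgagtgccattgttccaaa
Ncr1: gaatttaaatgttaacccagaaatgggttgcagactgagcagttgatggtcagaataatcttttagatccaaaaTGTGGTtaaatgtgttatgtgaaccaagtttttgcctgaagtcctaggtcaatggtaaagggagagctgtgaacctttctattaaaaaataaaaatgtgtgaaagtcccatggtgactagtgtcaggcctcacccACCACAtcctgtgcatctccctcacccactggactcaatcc
The RUNX motif, searched on both strands, was present in all 4 windows, and 14% of the 32851 promoters searched held it. It began 89 bases before the start in Klrb1c, 129 in Klrk1, 87 in Klrc1, and 176 and 41 in Ncr1. The T-box motif GGTGTGA, held by 3.33% of promoters, and the ETS motif CAGGAAG, held by 10.8%, had no match in these windows on either strand. A match is a run of letters and not evidence that a factor binds there.

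Library totals ran from 8154765 to 15258958 counts. Levels are in CPM, counts of a gene divided by the library total and scaled to the same total in every library, with TMM factors. Foxp3, the lineage factor of Tregs, read 716 to 1747 CPM in the 24 libraries of these 4 tissues, 462 to 1611 CPM in the tumor and 18.7 to 417 CPM in the gland. The sum of 10 pan-T-cell genes was 5555 to 6701 CPM in those 24 libraries, 2089 to 6842 CPM in the tumor libraries and 185 to 2119 CPM in the gland libraries. The gland libraries held 7127 to 28415 CPM of epithelial and milk genes, and the tumor libraries held 728 to 5061 CPM of 7 macrophage genes. Comparisons with gland or tumor libraries are therefore also given scaled to the pan-T sum, and a fit of the 24 libraries alone is given where it changed a call of a member. The NK-cell genes summed to 30.5 to 36.4 CPM in WT spleen and 13.7 to 28.3 CPM in WT blood. Among them, Klra9 was at 0 in every library outside the gland, and Eomes was 0.49 CPM or less in WT blood. CD8 genes, against which the gate sorted, summed to 4.18 to 12.98 CPM in the 4 tissues. In bulk RNA, fewer cells of a type and less RNA per cell cannot be told apart.

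Klrb1c, the gene of NK1.1, had the highest level per kilobase of exon among the receptor genes in WT spleen. In WT spleen its libraries read 66.2, 75.9 and 117.7 CPM, and in KEP spleen 28.4, 63.7 and 36.4 CPM. In WT blood they read 82.7, 47.5 and 93.6 CPM, and in KEP blood 9.82, 40.3 and 15.5 CPM. In both tissues each KEP library lay below each WT library. WT lung read 46.2, 47.3 and 37.7 CPM and KEP lung 10.2, 20.6 and 19.2 CPM. WT lymph node read 34.8, 23.2 and 23.5 CPM and KEP lymph node 8.12, 6.49 and 10.5 CPM. Here too the genotypes did not overlap, so the KEP libraries were the lower ones in 4 of 4 tissues. The gland held 0.76, 3.54, 0.59 and 0.69 CPM and the tumor 0.59, 1.60 and 0.77 CPM, below every library of the other tissues. Between genotypes, the log2 fold change was -1.77 (SE 0.47, adjusted p = 0.0356) in blood, which passed the threshold of 0.05. It was -1.02 (SE 0.46, adjusted p = 0.569) in spleen, -1.40 (SE 0.48, adjusted p = 0.104) in lung and -1.69 (SE 0.49, adjusted p = 0.330) in lymph node, which did not. Adjusted p-values are from edgeR's quasi-likelihood test with Benjamini-Hochberg adjustment over all genes tested unless another is named. Where no other fit is named, edgeR stands for the fit of all 31 libraries.

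The Klrb1c call in blood rested on single libraries. It was lost without KEP replicate 1 (adjusted p = 0.166) or KEP replicate 3 (adjusted p = 0.171), and without WT replicate 1 (adjusted p = 0.0857) or WT replicate 3 (adjusted p = 0.113), and it was lost in a fit of the 6 blood libraries alone (adjusted p = 0.139). The log2 fold change stayed between -2.57 and -1.43 in these leave-one-out fits. The call was also lost with pan-T scaling, with sorted cell number as a covariate and with no filter on low counts. In the fit of the 24 libraries, which leaves out gland and tumor, Klrb1c was lower in blood (adjusted p = 0.00924) and lung (adjusted p = 0.0383), where 20.2% and 19.9% of genes were called. Fitted on the 6 libraries compared, it was lower in lung (adjusted p = 0.0088) and lymph node (adjusted p = 0.02), where 13.6% and 1.65% of genes were called.

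Klrk1, for NKG2D, had its highest levels in WT blood, at 53.1, 18.3 and 78.7 CPM, against 4.28, 28.2 and 7.56 CPM in KEP blood. WT spleen read 22.4, 20.3 and 51.9 CPM and KEP spleen 9.47, 22.1 and 9.13 CPM. The genotypes overlapped in both tissues through KEP replicate 2. WT lung read 39.8, 23.5 and 27.9 CPM and KEP lung 7.34, 16.9 and 14.7 CPM, which did not overlap. WT lymph node read 16.4, 6.43 and 5.31 CPM and KEP lymph node 0.61, 1.52 and 1.89 CPM, which did not overlap either. The gap in the node was the widest of the receptor genes, with a log2 fold change of -2.83 (SE 0.87) and an adjusted p of 0.436, in a comparison where 0.0132% of genes were called. The log2 fold changes in blood (-1.90, SE 0.74, adjusted p = 0.156), spleen (-1.22, SE 0.73, adjusted p = 0.764) and lung (-1.23, SE 0.74, adjusted p = 0.388) were below 0 and were not called. The gland read 0.83, 1.21, 0.78 and 0.62 CPM, and the tumor 0.59, 8.19 and 0.39 CPM, where 1 library stood above the others.

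Klrd1, for CD94, spanned a wide range within groups. WT blood read 20.4, 3.11 and 27.7 CPM and KEP blood 1.04, 10.5 and 1.97 CPM. WT spleen read 7.05, 3.77 and 13.3 CPM and KEP spleen 3.27, 8.81 and 3.28 CPM. In both tissues WT replicate 2 was the lowest of its group and KEP replicate 2 the highest of its own. WT lung read 4.21, 8.68 and 2.37 CPM and KEP lung 1.08, 2.90 and 1.39 CPM. Both node groups were near 1 CPM, with 1.79, 0.66 and 1.40 CPM in WT and 0.27, 1.60 and 1.40 CPM in KEP. The genotypes overlapped in every tissue, and no Klrd1 difference between genotypes was called (log2 fold changes from -1.92 in blood, adjusted p = 0.233, to -0.27 in lymph node, adjusted p = 1). The gland read 0.38, 0.09, 0.92 and 0.14 CPM and the tumor 0, 1.42 and 0.77 CPM.

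Klrc1, for NKG2A, the partner of CD94, had its highest KEP libraries in replicate 2, as Klrd1 did. WT blood read 9.99, 1.22 and 20.3 CPM and KEP blood 0.73, 10.1 and 1.37 CPM. WT spleen read 6.20, 6.17 and 18.4 CPM and KEP spleen 4.69, 12.9 and 4.37 CPM. WT lung read 5.76, 11.9 and 5.19 CPM and KEP lung 1.17, 5.42 and 1.39 CPM. The genotypes overlapped in these 3 tissues, and the log2 fold changes of -1.36, -0.48 and -1.51 (SE 0.93, 0.90 and 0.95) were not called (adjusted p = 0.470, 1 and 0.417). The spleen value turned to 0.24 without WT spleen replicate 3. In the lymph node Klrc1 was close to the limit of detection, with 9 counts in the 3 WT libraries together and 4 counts in the 3 KEP libraries, and the genotypes cannot be compared at this depth. The gland held 16 counts in 4 libraries and the tumor 13 counts in 3 libraries.

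Ncr1, for NKp46, was at or near the limit of detection everywhere. Its counts ran from 0 to 20, 10 of 31 libraries had none, and 2 libraries had 10 or more. A count of 0 allows up to 3 counts in a library, counting error only. The highest group was the WT gland, with counts of 15, 7, 20 and 2 and a mean of 0.80 CPM ± 0.53 (SD, n = 4), and the other groups averaged 0.05 to 0.39 CPM. Ncr1 ranges did not overlap between genotypes in the lymph node, with 7 counts in WT and 2 counts in KEP, both near the limit of detection. With no filter on low counts, edgeR called Ncr1 in none of the 16 comparisons, and none had an unadjusted p under 0.05. The smallest adjusted p was that of WT gland against spleen (log2 fold change 2.14, SE 1.11, adjusted p = 0.114). Leaving out 1 library of blood, spleen, lung, lymph node or tumor let Ncr1 past the filter. Among these fits it was called only without tumor replicate 2, lower in tumor against gland (log2 fold change -6.20, adjusted p = 0.0176). The tumor replicates left there, 1 and 3, had counts of 0. Without tumor replicate 1 (-1.73, adjusted p = 0.239) or replicate 3 (-1.76, adjusted p = 0.205) it was not called.

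Ccl5 was detected in all 31 libraries, with 24 to 2066 counts. WT spleen read 53.2, 63.0 and 101.0 CPM and KEP spleen 34.7, 69.7 and 31.2 CPM. WT blood read 24.8, 16.7 and 97.8 CPM and KEP blood 7.73, 20.5 and 9.96 CPM. WT lung read 18.7, 36.9 and 33.5 CPM and KEP lung 9.59, 22.6 and 10.6 CPM. The genotypes overlapped in these 3 tissues, and the log2 fold changes of -0.68 in spleen (SE 0.66, adjusted p = 0.910), -1.86 in blood (SE 0.70, adjusted p = 0.138) and -1.06 in lung (SE 0.70, adjusted p = 0.443) were not called. In the fit of the 24 libraries the blood difference was called (adjusted p = 0.0363). In the lymph node the order turned: WT read 3.84, 6.87 and 4.75 CPM and KEP 9.07, 15.2 and 12.8 CPM, with each KEP library above each WT library. That log2 fold change of 1.26 (SE 0.75, adjusted p = 0.939) was not called, and 11.3% of genes were higher in KEP nodes with no overlap. The difference between the node and spleen changes was 1.94 (SE 1.00, unadjusted p = 0.0640, adjusted p = 1), which was not called.

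In the tumor Ccl5 read 46.5, 183.8 and 13.02 CPM, against 2.65, 5.70, 5.23 and 1.65 CPM in the gland. Ccl5 was called higher in the tumor, at a log2 fold change of 4.42 (SE 0.70, adjusted p = 1.7e-05), in a comparison where 53% of genes were called. Without tumor replicate 2 the value was 2.97 (adjusted p = 0.000519). Scaled to the pan-T sum, the value was 0.90 (adjusted p = 0.214) and the call was lost: Ccl5 counts came to 1.08% ± 1.18 of the pan-T counts in the gland (SD, n = 4) and 1.96% ± 2.26 in the tumor (SD, n = 3). Tumor replicate 2, the highest for Ccl5, was also the highest for macrophage genes, at 5061 CPM against 728 and 1081 CPM. Their part in the result was not tested. The 4 receptor genes were not called between tumor and gland. The nearest was Klrk1 (1.85, SE 0.86, adjusted p = 0.0734), which was -0.79 without tumor replicate 2 and was called by DESeq2 (1.82, adjusted p = 0.0402). Scaled to the pan-T sum, Klrb1c (-3.01, adjusted p = 2.75e-05), Klrd1 (-2.55, adjusted p = 0.0493) and Klrc1 (-3.02, adjusted p = 0.0329) were lower in the tumor, a scaling that moved the median of all genes to -3.45 and under which 93.1% of genes were called, 124 higher and 14028 lower. Against KEP spleen, the tumor Ccl5 value of 0.84 (SE 0.67, adjusted p = 0.276) was not called and became -0.59 without tumor replicate 2.

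**Figure D1:**
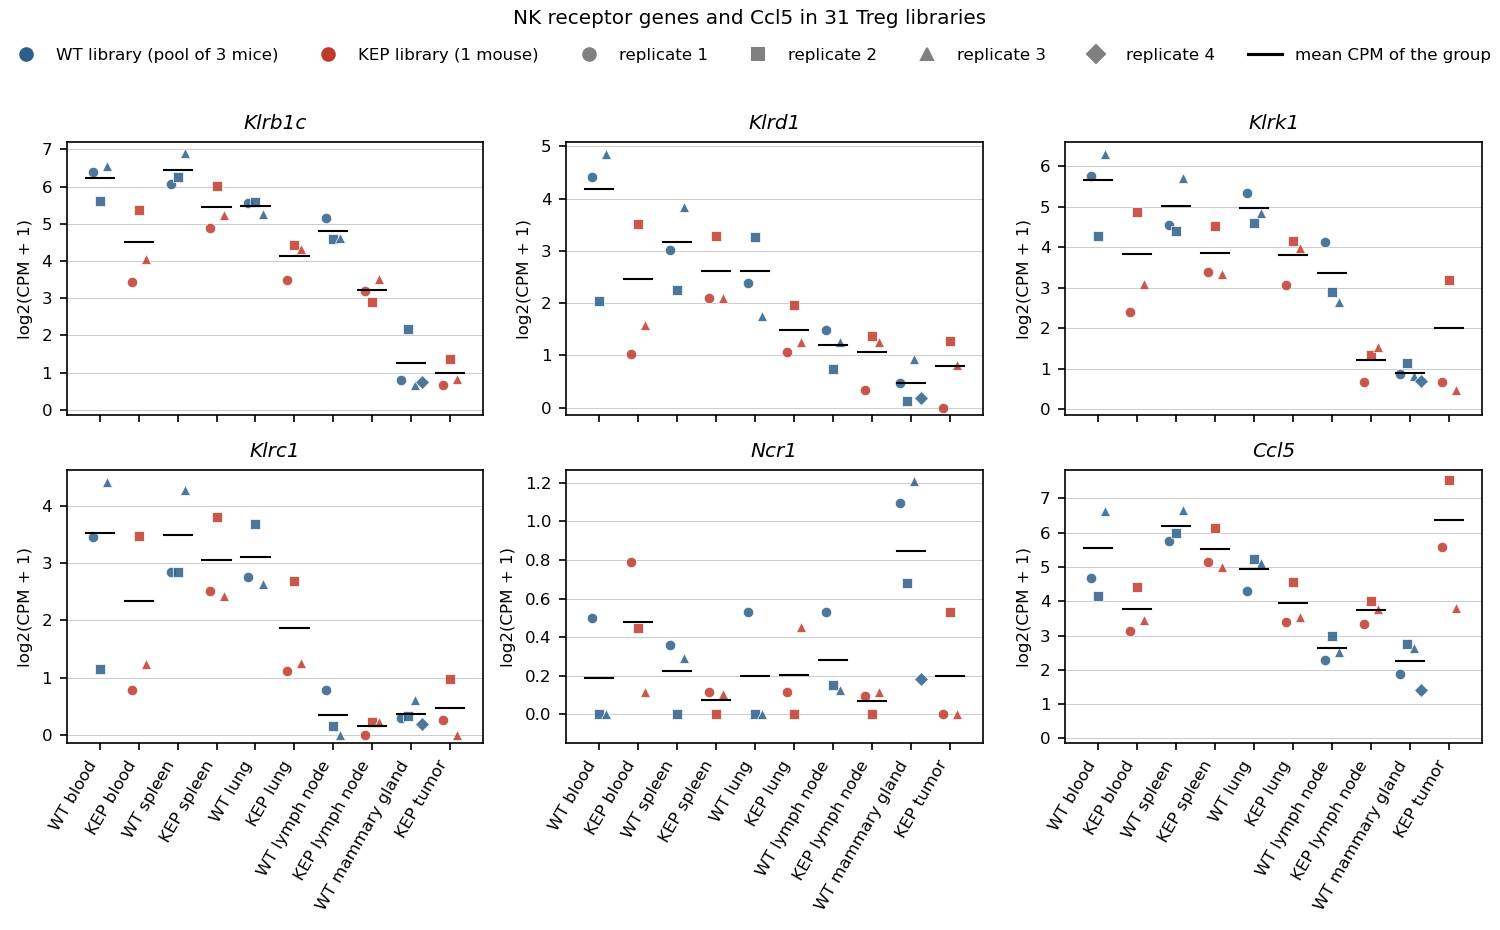
Level of each gene in the 31 libraries, as log2(CPM + 1) on the vertical axis and by group on the horizontal axis; each point is a library, marker shapes are replicate numbers and black lines are group means of CPM. Klrb1c points of KEP lie below those of WT in blood, spleen, lung and lymph node, Ccl5 is higher in KEP than in WT nodes, and Ncr1 stays at or below 1.31 CPM.

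Compared per kilobase of exon, which allows genes to be ranked, Ccl5 led in WT spleen at 75.4 ± 26.3 CPM per kb (SD, n = 3). Klrb1c followed at 29.3 ± 9.24, then Klrd1 at 6.28 ± 3.78, Klrc1 at 5.17 ± 3.55, Klrk1 at 4.39 ± 2.46 and Ncr1 at 0.11 ± 0.097 CPM per kb. The ranges of Klrd1, Klrc1 and Klrk1 overlapped, so their order is not settled. By group, mean Klrb1c CPM ran from WT spleen and WT blood, which overlapped, down to WT lung, KEP spleen, WT lymph node, KEP blood, KEP lung and KEP lymph node, each overlapping its neighbour, and then to gland and tumor. Klrk1 ranges of WT lung and KEP spleen, neighbours in its order, did not overlap, while blood, spleen and lung of the same genotype overlapped. Ccl5 levels were ordered otherwise, with the tumor mean of 81.1 CPM first and the gland mean of 3.81 CPM last, and only KEP and WT node did not overlap as neighbours. For Klrc1 the neighbours KEP lung and tumor did not overlap, and for Klrd1 and Ncr1 every neighbour did.

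Taken by comparison, the log2 fold changes of the 5 testable members in KEP against WT were below 0 for 5 of 5 in blood, spleen and lung, with medians of -1.86, -0.68 and -1.40, against a median of 0 over all genes, of which 45.4%, 46.7% and 49.3% were below 0. In lymph node, 4 of 5 were below 0, as were 46.1% of genes, and Ccl5 was above. The node values of Klrc1, with the few counts given above, and of Klrd1 changed sign when single libraries were left out. Of the 5, 1 was called lower in blood, where 4.32% of genes were called and 2.14% were called lower. In lung and lymph node, edgeR fits of fewer libraries called members, Klrb1c among them. In the edgeR fit of all 31 libraries none was called in spleen (0.447% of genes called), lung (3.09%) or lymph node (0.0132%), nor by DESeq2. At an unadjusted p under 0.05 the counts were 4, 1, 1 and 2 members in blood, spleen, lung and lymph node, where 18.6%, 7.99%, 19% and 5.75% of all genes reached it. Genotype ranges without overlap, lower in KEP, were found for 1 member in blood, 1 in spleen, 2 in lung and 2 in node, where 12.8%, 9.57%, 15.5% and 9.85% of genes did so. The KEP effect in lymph node, lung or blood minus that in spleen was called for 0 genes by edgeR, with 249, 436 and 449 genes (1.64%, 2.87% and 2.95%) at an unadjusted p under 0.05, none of them a member. DESeq2 called none of the members either, and the fit of the 24 libraries called 16, 3 and 0 genes, none of them a member. No title date holds both genotypes, and WT libraries pooled mice while KEP libraries did not, so genotype, date and pooling cannot be told apart.

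**Figure D2:**
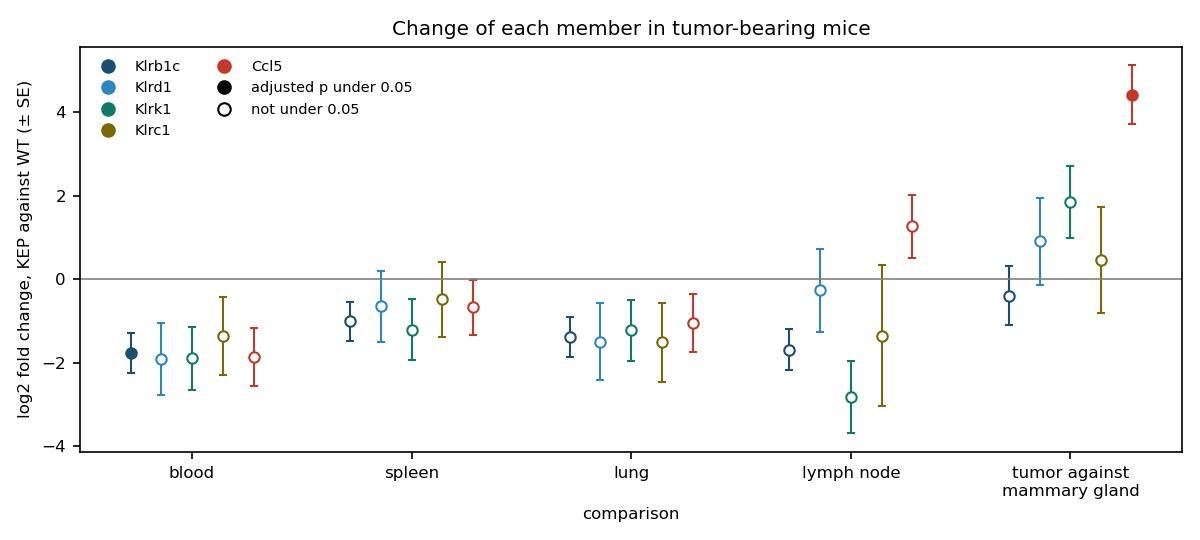
Log2 fold change of KEP against WT (vertical axis, with SE bars) for the 5 testable genes in each comparison (horizontal axis); filled points have an adjusted p under 0.05. Most points lie below 0 in blood, spleen, lung and lymph node, and the called points are Klrb1c in blood at -1.77 and Ccl5 in tumor against gland at 4.42.

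Within each genotype the lymph node had the lowest mean of the 4 tissues for all 5 testable members. All 5 testable members had node ranges below the spleen ranges in both genotypes, where 12.1% of all genes in WT and 15.3% in KEP did so. In WT nodes, Klrc1 (log2 fold change -5.11, SE 1.21, adjusted p = 0.0221) and Ccl5 (-3.82, SE 0.77, adjusted p = 0.00648) fell against spleen, in a comparison with 1.95% of genes called. In the fit of the 24 libraries Klrb1c was called as well (-1.67, adjusted p = 0.0208), with 8.97% of genes called. The Klrc1 call was lost without WT node replicate 2 or 3 or WT spleen replicate 3, and the Ccl5 call without WT node replicate 1 (adjusted p = 0.0623). In KEP nodes, Klrb1c (-2.35, SE 0.49, adjusted p = 0.0118), Klrk1 (-3.36, SE 0.87, adjusted p = 0.0480) and Klrc1 (-5.99, SE 1.33, adjusted p = 0.0175) fell, with 1.62% of genes called. Leaving out 1 library left 0 to 2 of these calls, 0 without KEP node replicate 1 or 2 or KEP spleen replicate 2. The Klrk1 call was lost in each of the 6 such fits (adjusted p from 0.0723 to 0.249), while Klrb1c was called in 3 and Klrc1 in 2. Ccl5 in KEP nodes against KEP spleen had a log2 fold change of -1.88 (SE 0.70, adjusted p = 0.230) and was not called.

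In KEP lung Klrb1c fell by 1.37 on the log2 scale against spleen (SE 0.47, adjusted p = 0.0322; 28.2% of genes called), a call lost without KEP lung replicate 1, 2 or 3 or KEP spleen replicate 2. With the title date as a replicate block, 3 members fell in KEP lung: Klrb1c (adjusted p = 0.0101), Klrc1 (-1.68, adjusted p = 0.0278) and Ccl5 (-1.69, adjusted p = 0.0179), with 33.4% of genes called. The same block made Ccl5 lower in KEP blood than in KEP spleen (-1.88, adjusted p = 0.0316; 10.2% of genes called), where 7.24% of genes and none of the members were called without it. In the fit of the 24 libraries Ccl5 was called lower in KEP lung (-1.67, adjusted p = 0.0274; 48.1% of genes called) and in KEP blood (-1.83, adjusted p = 0.0340; 24.6%) than in KEP spleen. Klrk1 in lung against spleen had log2 fold changes of -0.05 in WT (SE 0.72) and -0.07 in KEP (SE 0.73), which were not called. None of the members was called in WT lung (27% of genes called) or WT blood (7.88%) against WT spleen.

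In the gland all 5 members fell against WT spleen, with log2 fold changes from -6.02 to -4.25, where 76.2% of genes were called and 32.2% were called lower. Scaled to pan-T counts, 1 of 5 calls remained, Klrb1c at -2.62 (adjusted p = 2.28e-05), with 96% of genes called. Of these genes 14490 were higher and 97 lower, and the median of all genes was 4.45. In the tumor 4 members fell against KEP spleen, where 61.5% of genes were called and 25.9% were called lower: Klrb1c (-5.40, adjusted p = 1.37e-07), Klrc1 (-4.15, adjusted p = 0.00317), Klrd1 (-2.77, adjusted p = 0.0182) and Klrk1 (-2.13, adjusted p = 0.0245). Scaled to pan-T counts, Klrb1c (-4.59, adjusted p = 1.88e-06) and Klrc1 (-3.54, adjusted p = 0.0257) were called, with 39.5% of genes called, 5668 higher and 334 lower. The Klrk1 value was -4.76 without tumor replicate 2, and the call was lost without tumor replicate 1 or 3 or KEP spleen replicate 2. The Klrd1 call was lost without tumor replicate 1 or KEP spleen replicate 2. As a share of pan-T counts, Klrb1c came to 1.36% ± 0.43 in WT spleen and 0.66% ± 0.30 in KEP spleen (SD, n = 3 each), 0.23% ± 0.084 in the gland (SD, n = 4) and 0.028% ± 0.017 in the tumor (SD, n = 3).

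The 5 testable members varied together among libraries of the same group. Each of the 3 title dates of a genotype supplied 1 library per tissue, and KEP replicate 2 (title date 22_6_18) was the highest of its group in 18 of 20 combinations of member and tissue. KEP replicate 1 (title date 18_5_18) was the lowest in 16 of 20. Averaged over the 4 tissues, Klrk1 read 5.43, 17.2 and 8.32 CPM on the 3 KEP dates and 32.9, 17.1 and 41.0 CPM on the 3 WT dates. Klrc1 read 1.65, 7.17 and 1.82 CPM on the KEP dates and 5.67, 4.85 and 10.97 CPM on the WT dates, so its KEP date 2 lay within the WT values. Klrb1c read 14.1, 32.8 and 20.4 CPM on the KEP dates and 57.5, 48.5 and 68.1 CPM on the WT dates, with no overlap. For WT the order was less regular, and replicate 3 was the highest in 10 of 20.

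Across the 24 libraries, the deviations of log2 CPM from the group means were correlated for all 10 pairs of the 5 members, with Pearson r from 0.61 (Klrb1c with Ccl5) to 0.91 (Klrd1 with Klrc1) and a median of 0.82. These r describe libraries that share title dates across tissues, and the labels do not say what a date marks. The same deviations went with the summed innate and gamma delta T-cell genes (Zbtb16, Tcrg-C1, Tcrg-C2 and Sox13) at r of 0.64 to 0.79. They went with the summed NK-cell genes, a sum that was mostly the perforin gene Prf1 in WT spleen, at 0.68 to 0.82. They went against Foxp3 at -0.31 to -0.48 and against the summed B-cell genes at -0.47 to -0.70. For the summed CD8 genes r lay between -0.07 and 0.19, for the macrophage genes between -0.38 and -0.13 and for the dendritic-cell genes between 0.06 and 0.40. The part of these cells in the members' levels was not tested.

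**Figure D3:**
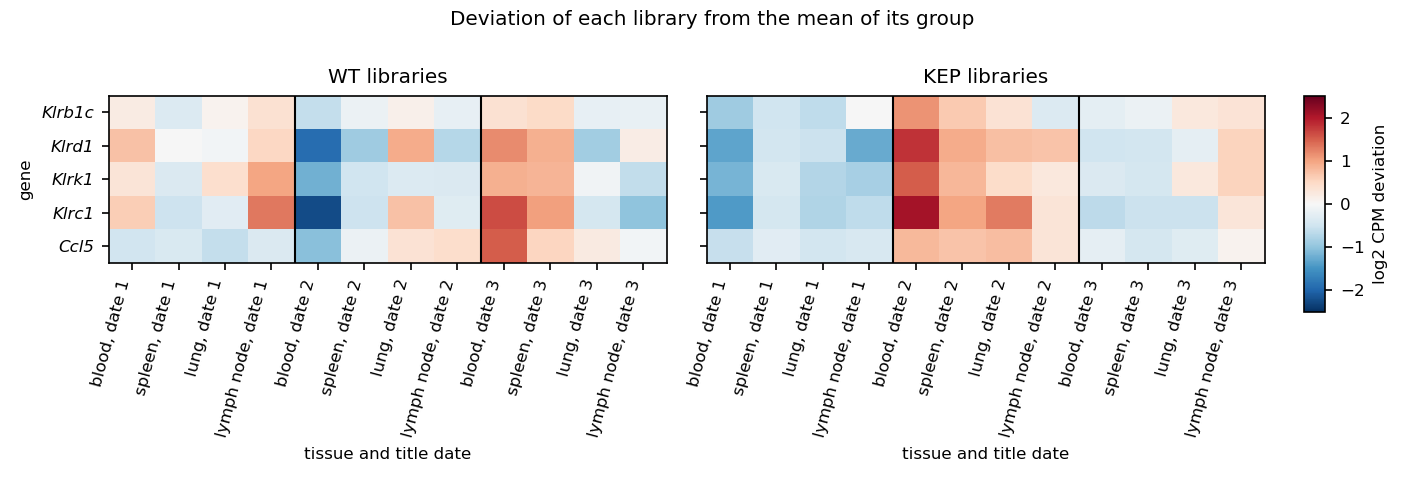
Deviation of log2 CPM from the mean of the group, as color, for the 5 testable genes (vertical axis) in the 24 libraries of 4 tissues (horizontal axis, ordered by title date within genotype; date numbers 1 to 3 are different days in WT and KEP). The KEP libraries of the second date are above their group means in nearly every cell, and those of the first date below.

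The genes most like each member over the 24 libraries were listed by Pearson r of log2 CPM. For Klrb1c they were its family neighbour Klrb1a (0.99), Snai3 (0.91) and Rnf166 (0.91). For Klrk1 they were Rnf166 (0.89), Arhgap26 (0.89) and Hgsnat (0.89). For Klrd1 they were Tm6sf1 (0.90), Ly6c2 (0.90) and Klrc2 (0.89), and for Klrc1 the integrin gene Itga1 (0.96), Samd3 (0.96) and Aqp9 (0.96). For Ccl5 they were Nkg7, a cytotoxic granule gene (0.89), Atp8a2 (0.89) and Trbv1 (0.88). Klrb1a and Klrb1c are paralogs between which short reads could be split, which was not tested.

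Of 26 other NK receptor genes listed, 24 were in the table and 10 could be tested. In blood, Klrb1a fell in KEP with Klrb1c, from 17.5 ± 5.99 to 4.78 ± 2.90 CPM (SD, n = 3 each; log2 fold change -1.86, SE 0.48, adjusted p = 0.0295), and was the only one of the 10 called there. edgeR called none of them in spleen, lung or lymph node, with 2, 3 and 2 at an unadjusted p under 0.05. Klrg1, the inhibitory receptor of effector Tregs, was not called with them. In spleen, where it had the smallest p of the list, Klrg1 read 279, 140 and 334 CPM in KEP against 84.3, 93.1 and 89.1 CPM in WT, with no overlap (12.3% of genes were higher in KEP spleen with no overlap). Its log2 fold change of 1.50 (SE 0.57, adjusted p = 0.424) was not called there, and was called in the fit of the 24 libraries (1.50, adjusted p = 0.00414; 4.26% of genes called). In KEP replicate 2, where the members were highest in the spleen, Klrg1 was the lowest of the KEP spleen libraries. In nodes against spleen, Cd160, a receptor of NK and cytotoxic T cells, fell in WT (-3.54, SE 0.73, adjusted p = 0.00746) and in KEP (-2.90, SE 0.72, adjusted p = 0.0369), though Cd160 overlaps exons of Pdzk1 on the opposite strand and is uncertain, and Klrb1a fell in KEP (-2.29, SE 0.50, adjusted p = 0.0159).

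Of 10 listed adaptor genes, through which NK receptors signal, 8 were tested, and edgeR called 0 between genotypes in blood, spleen, lung or lymph node, with 0, 0, 2 and 1 at an unadjusted p under 0.05. Fcer1g had the smallest p in blood (0.82, SE 0.54, adjusted p = 0.457) and in lung (-1.85, SE 0.63, adjusted p = 0.101). In tumor against gland 7 of 8 rose on the TMM scale, where 23.5% of genes were called higher, and 0 were higher and 2 lower on the pan-T scale. The pan-T scale called 124 of 15202 genes higher and 14028 lower. Fcer1g had values of 4.21 (adjusted p = 2.2e-07) by TMM and 0.77 (adjusted p = 0.261) by pan-T scaling, and Tyrobp 4.44 (adjusted p = 1.14e-05) and 0.80 (adjusted p = 0.350). Hcst, at 2.61 by TMM (adjusted p = 1.57e-05), was -0.25 by pan-T scaling (adjusted p = 0.469). Ptpn6, for SHP-1, turned from 1.80 (adjusted p = 6.95e-06) to -1.45 (adjusted p = 0.000839). Tyrobp, for DAP12, is also abundant in myeloid cells, and it read 24.9, 189 and 33.6 CPM in the tumor libraries, highest in the replicate with the most macrophage RNA.

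Ligand genes of the receptors were measured in the same cells. Of 13 listed, 6 could be tested, and edgeR called 0 between genotypes in blood, spleen, lung or lymph node, with 0, 0, 0 and 1 at an unadjusted p under 0.05. H60b and H60c, ligands of NKG2D, rose in lung against spleen in both genotypes: H60b from 2.08 ± 0.41 to 20.3 ± 6.15 CPM in WT (3.29, adjusted p = 2.76e-06) and from 2.28 ± 0.57 to 23.2 ± 6.30 CPM in KEP (3.34, adjusted p = 1.87e-06; SD, n = 3 each). H60c rose by 3.13 in WT (adjusted p = 7.66e-06) and 3.50 in KEP (adjusted p = 1.59e-06) on the log2 scale. H60b overlaps exons of Raet1e on the same strand and is uncertain. H2-T23, which encodes Qa-1, the ligand of CD94 and NKG2A, read 51.7 ± 11.3 CPM in the gland (SD, n = 4) and 122 ± 64.3 CPM in the tumor (SD, n = 3). Its direction depended on the scaling: it was higher in the tumor by TMM (1.24, adjusted p = 6.58e-05) and lower relative to the pan-T sum (-2.35, adjusted p = 1.27e-05).

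Of 11 cytotoxic genes listed, 10 were tested, and Gzmb, for granzyme B, rose in KEP blood, spleen and lung. Gzmb went from 32.6 ± 7.29 to 166 ± 25.9 CPM in blood (2.35, adjusted p = 0.0130), from 8.42 ± 1.02 to 75.7 ± 23.9 CPM in spleen (3.17, adjusted p = 0.00514) and from 26.2 ± 6.14 to 133 ± 41.3 CPM in lung (2.35, adjusted p = 0.0167; SD, n = 3 each). None of the other cytotoxic genes was called in these 3 comparisons, and the list medians were -0.68, -0.50 and -0.50. In nodes against spleen, Xcl1, for lymphotactin, fell in WT (-5.80, SE 0.95, adjusted p = 0.000719) and KEP (-5.39, SE 0.95, adjusted p = 0.00268), as did Fasl (-2.58, adjusted p = 0.0175, and -2.52, adjusted p = 0.0277), and Nkg7 fell in WT (-3.15, adjusted p = 0.00617). Xcl1 overlaps exons of Gm20743 on the opposite strand and is uncertain.

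Of the 7 transcription factors of the NK and cytotoxic program that were listed, Nfil3 rose in KEP spleen from 9.34 ± 0.62 to 18.4 ± 3.92 CPM (0.98, adjusted p = 0.0293) and in KEP lung from 203 ± 34.8 to 328 ± 36.2 CPM (0.69, adjusted p = 0.0491; SD, n = 3 each). It was the only one of the 7 called there, and edgeR called none in blood or lymph node, with 3 and 1 at an unadjusted p under 0.05. In WT nodes against spleen, Tbx21, which encodes T-bet, fell from 111 ± 31.6 to 9.87 ± 1.32 CPM (-3.48, SE 0.73, adjusted p = 0.00892). Zfp683, for Hobit, fell in WT nodes (-6.17, SE 1.31, adjusted p = 0.00932) and in KEP nodes (-4.73, SE 1.20, adjusted p = 0.0428).

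Of 9 receptors and relatives of Ccl5 reported here, 1 rose in KEP blood: Ccr1 from 1.73 ± 0.75 to 10.8 ± 4.80 CPM (2.62, SE 0.64, adjusted p = 0.0219; SD, n = 3 each). edgeR called none in spleen, lung or node, with 3, 2 and 1 at an unadjusted p under 0.05. In tumor against gland 6 of 9 rose and 1 fell by TMM, and 1 rose and 3 fell relative to the pan-T sum. TMM called 23.5% of all genes higher and 29.5% lower. Pan-T scaling called 124 of 15202 genes higher and 14028 lower. Ccr1 was higher on both scales (4.89, adjusted p = 4.18e-07, and 2.41, adjusted p = 0.000156), and the scavenging receptor gene Ackr1, which vessels express, was lower on both (-6.05, adjusted p = 6.92e-07, and -9.06, adjusted p = 1.33e-06). The chemokine gene Ccl6 was called by TMM (4.69, adjusted p = 4.39e-06) and not by pan-T scaling (1.27, adjusted p = 0.157).

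**Figure D4:**
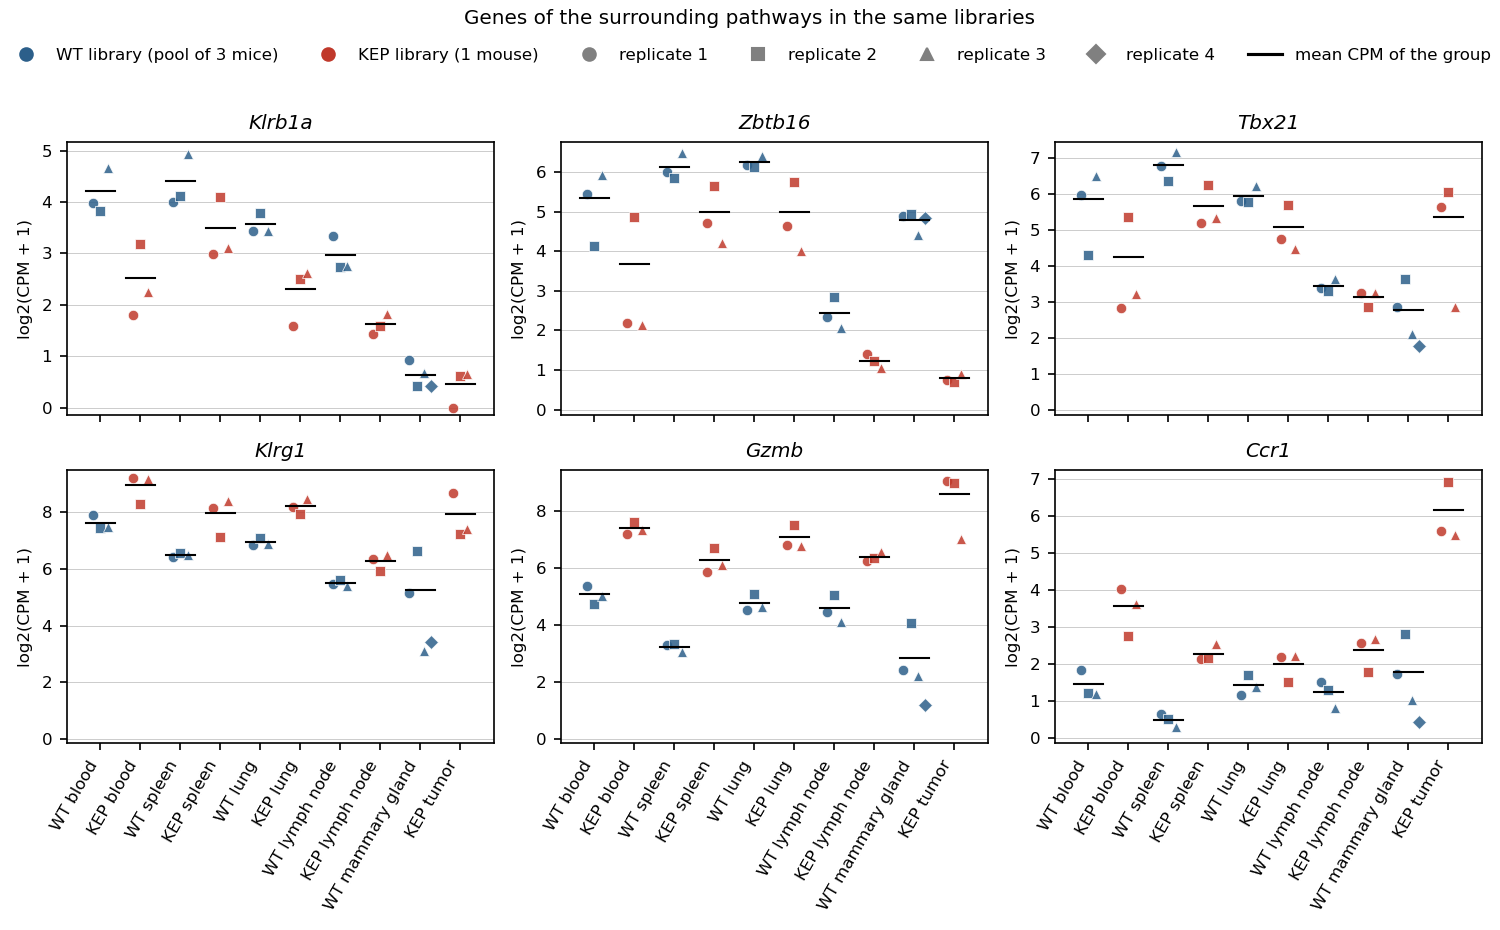
Genes of the surrounding pathways in the same 31 libraries, as log2(CPM + 1) by group, drawn as in the plot of the members; Zbtb16 and Tbx21 were added after their values were seen. In spleen, Zbtb16 and Tbx21 are lower and Klrg1, Gzmb and Ccr1 higher in KEP with no overlap between genotypes, while Klrb1a overlaps. Of all genes, 9.57% are lower and 12.3% higher in KEP spleen with no overlap. In the fit of all 31 libraries only Gzmb of the genes drawn is called there.

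In tumor against gland by TMM, 6 of 10 related receptors, 6 of 6 ligands, 6 of 10 cytotoxic genes and 5 of 7 transcription factors rose and 1 cytotoxic gene fell, where 23.5% of all genes were called higher, as were 10 of 10 pan-T genes with a median of 2.75. Relative to the pan-T sum, none of the related receptors, ligands or transcription factors was higher and 5, 4 and 3 of them were lower, while 2 cytotoxic genes were higher and 5 lower. Of all 15202 genes, 124 were called higher and 14028 lower on that scale, with a median of -3.45. Gzmb was higher in the tumor on both scales, with 6.23 ± 6.40 CPM in the gland (SD, n = 4) and 387 ± 225 CPM in the tumor (SD, n = 3), and values of 5.99 (adjusted p = 1.01e-08) by TMM and 3.12 (adjusted p = 5.31e-07) by pan-T scaling. Klrg1, at 37.5 ± 41.8 CPM in the gland and 241 ± 143 CPM in the tumor, was called by TMM (2.69, adjusted p = 0.000228) and not relative to the pan-T sum (0.24, adjusted p = 0.491).

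Between genotypes and between nodes and spleen, pan-T scaling turned no direction of a called gene of the pathway and innate lists, and it left fewer calls. In KEP against WT, 1 of 3 remained in blood, 1 of 2 in spleen and 0 of 2 in lung. Over all genes, this scaling called 0.0263% in blood, 0.0329% in spleen and 0 genes in lung. Gzmb was the one that remained in blood (adjusted p = 0.0358) and in spleen (adjusted p = 0.00109), and in lung its adjusted p was 0.0637. In nodes against spleen, 5 of 8 remained in WT and 3 of 8 in KEP, among them Xcl1 and Zbtb16 in both genotypes. There the scaling called 0.296% of all genes in WT and 0.138% in KEP.

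Marker genes of other cells are given beside the genotype differences of the members. The summed innate and gamma delta T-cell genes (4 of 5 listed were measured) ran from 92.2 to 129 CPM in WT spleen and 28.9 to 84.4 CPM in KEP spleen. They ran from 105 to 111 CPM in WT lung and 25.5 to 76.4 CPM in KEP lung, and from 8.85 to 18.5 CPM in WT node and 3.46 to 5.41 CPM in KEP node, with no overlap in these 3 tissues. In blood they overlapped, at 24.8 to 90.1 CPM in WT and 8.24 to 53.9 CPM in KEP. Zbtb16, which encodes the PLZF factor of natural killer T cells and other innate-like T cells, had a log2 fold change of -1.76 in blood (adjusted p = 0.0851) and was not called. In nodes against spleen Zbtb16 fell with the members, in WT (-3.96, SE 0.64, adjusted p = 0.000719) and in KEP (-4.48, SE 0.70, adjusted p = 0.000818). The part of innate-like T cells in the members' levels was not tested.

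The summed NK-cell genes (7 of 8 listed were measured) overlapped between genotypes in blood, at 13.7 to 28.3 CPM in WT and 16.5 to 32.0 CPM in KEP, in spleen, at 30.5 to 36.4 and 18.8 to 36.7 CPM, and in lung, at 8.13 to 10.8 and 10.7 to 13.8 CPM. In lymph node they were higher in KEP with no overlap, at 22.3 to 29.4 CPM against 17.2 to 21.7 CPM in WT. Most of this sum was Prf1, for perforin, at 28.6 ± 2.62 CPM in WT spleen (SD, n = 3). In lung, 3 further sums were lower in KEP with no overlap: macrophage genes at 38.3 to 79.0 against 96.9 to 166 CPM, dendritic-cell genes at 3.50 to 6.11 against 11.1 to 13.8 CPM and B-cell genes at 2.24 to 3.92 against 5.65 to 7.79 CPM. In lymph node the B-cell genes were higher in KEP, at 8.40 to 12.8 against 2.42 to 5.54 CPM. Macrophage genes were higher in KEP spleen (16.4 to 36.1 against 8.52 to 12.5 CPM) and KEP node (16.2 to 20.1 against 7.54 to 15.5 CPM). Epithelial and milk genes were higher in KEP with no overlap within each of the 4 tissues, and over the tissues they ran from 15.1 to 44.3 CPM in KEP and 5.44 to 20.0 CPM in WT. The part of these cells in the members' levels was not tested. The summed Treg genes were higher in KEP with no overlap in all 4 tissues: 3915 to 4873 against 2201 to 2972 CPM in blood, 2705 to 3516 against 1884 to 2286 CPM in spleen, 5727 to 6043 against 3676 to 4486 CPM in lung and 3486 to 3826 against 2647 to 3482 CPM in node. Foxp3 itself was 1691 ± 89.1 CPM in KEP blood and 986 ± 93.7 CPM in WT blood (SD, n = 3 each; log2 fold change 0.78, adjusted p = 0.555), which was not called. The part of the Treg share in the members' levels was not tested.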

How the data were processed

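The deposited table holds whole-number read counts per gene, which the authors made from single-end reads of stranded mRNA libraries with TopHat2 2.1.0 and HTSeq on GRCm38, per the submitters' processing notes. The annotation and strand setting of the counting are not given in the sources used here. How FVB/N reads align in the polymorphic NK gene complex of that reference was not tested.

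From these counts, edgeR 4.0.16 (R 4.3.3, limma 3.58.1) was fitted to all 31 libraries with 1 mean for each of 10 groups, TMM factors, a filter with a minimum count of 10 and the quasi-likelihood test. P-values were adjusted by Benjamini-Hochberg over the genes tested in each of 16 comparisons and called under 0.05. The fit was tested on simulated data. Alternatives were DESeq2 1.42.0, limma-voom, other scalings and filters, fewer libraries, sorted cell number, title date as a block and leaving out each library. The count table has 0 columns of samples outside the series.

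The members and gene lists were chosen with earlier results of these data known. Genes named beside the members were up to 4 called members of each list by smallest p, otherwise the one with the smallest p, the 3 genes most correlated with each member, and marker genes; others are said to be chosen after their values were seen. Title dates link libraries of a genotype across tissues, per the labels: same-date deviations over all genes correlated above 0.1 in 18 of 18 pairs of the 4 tissues in KEP (median 0.27) and in 7 of 18 in WT (median 0.090). Of same-date pairs that included tumor or gland, 1 of 12 in KEP (median -0.0025) and 0 of 12 in WT (median -0.0033) were above 0.1. No pair of libraries of the same group agreed within sampling noise (33 pairs, chi-square per degree of freedom from 4.67). Per the labels, each KEP library is 1 mouse and each WT library a pool of 3 mice. 1 listed gene is not reported here and was left out of the counts of its list.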

Additional observations from a re-analysis of the deposited data

Results flagged for a closer look

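Klrb1c in the WT mammary gland was set apart by 1 library. Replicate 2 read 3.54 CPM, against 0.59 to 0.76 CPM in the other 3 libraries, and its gap to the nearest was 0.943 of the range, above Dixon's 95% critical value for 4 samples, which chance exceeds in about 1 in 20 groups. The same library had the highest pan-T sum of the gland, at 2119 CPM. Each of the 6 members was checked in this way in the gland, and only Klrb1c exceeded the critical value.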

How the results depend on the processing

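RLE factors, upper-quartile factors and a minimum count of 50 changed no direction and no call of the members. Scaling to the pan-T sum turned the tumor against gland values of Klrd1 (-2.55), Klrk1 (-1.42) and Klrc1 (-3.02), the WT lung against spleen value of Klrk1 (0.059) and the gland against spleen value of Klrd1 (0.075). It left 0 members called in KEP against WT blood, 3 in tumor against gland, 1 in WT node against spleen, 1 in gland against spleen, 0 in KEP node, 0 in KEP lung and 2 in tumor against spleen. In that order it called 0.0263%, 93.1%, 0.296%, 96%, 0.138%, 3.24% and 39.5% of all genes. Limma-voom turned Klrc1 in tumor against gland (-0.35) and in WT blood against spleen (-0.47) and Klrk1 in WT lung against spleen (0.035), with 1 member called in the last; with the title date as a random replicate block the values were -0.36, -0.47 and 0.033, with 1 member called in WT lung and 2 in KEP against WT blood. The title date as a fixed replicate block gave Klrc1 in WT blood -0.049 and Klrk1 in KEP lung 0.0021, with 3 members called in KEP lung and 1 in KEP blood, and changed no other count by over 1.5 times. With this block 33.4% of all genes were called in KEP lung and 10.2% in KEP blood. Sorted cell number as a covariate gave Klrc1 in WT blood against spleen -0.75 and 0 members called in KEP against WT blood. The 24 libraries alone gave 2 members called in KEP against WT blood, 1 in lung, 2 in KEP lung and 1 in KEP blood against spleen. That fit called 20.2%, 19.9%, 48.1% and 24.6% of all genes, in the same order. Fits of the compared libraries alone gave 0 in KEP against WT blood, 2 in lung and 2 in lymph node, 4 in WT node, 2 in WT lung, 3 in KEP lung and 2 in tumor against spleen. The shares of all genes called there were 14.6%, 13.6%, 1.65%, 10.9%, 46.2%, 45.6% and 46.8%, in the same order. No filter gave 0 in KEP against WT blood and 0 in KEP lung, and DESeq2 gave 2 in tumor against gland. The cause was not tested.

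Leaving out 1 library at a time, the members called ran from 0 to 1 in KEP against WT blood, 1 to 2 in tumor against gland, 1 to 2 in WT node, 0 to 2 in KEP node, 0 to 1 in KEP lung, 0 to 1 in KEP blood and 2 to 4 in tumor against spleen. Directions that turned were, in KEP against WT, Klrc1 in spleen (-1.18 to 0.24) and node (-1.94 to 0.89), Klrd1 in node (-0.67 to 0.20) and the lung minus spleen value of Ccl5 (-0.87 to 0.079). In tumor against gland they were Klrb1c (-0.95 to 0.58), Klrd1 (-0.018 to 1.84), Klrk1 (-0.79 to 2.37) and Klrc1 (-1.48 to 1.01). Against spleen they were Klrk1 (-0.29 to 0.51) and Klrc1 (-0.91 to 0.30) in WT lung, Klrb1c (-0.41 to 0.059) and Klrc1 (-0.87 to 0.76) in WT blood, Klrk1 in KEP lung (-0.30 to 0.48), Klrd1 (-1.76 to 0.45) and Klrk1 (-1.20 to 0.51) in KEP blood, and Ccl5 in the tumor (-0.59 to 1.36). Depth limits Ncr1 in all groups and Klrc1 in node, gland and tumor.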
